A study of Homo sapiens with 4 samples.

Results

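The regions described here are the stretches of chromatin called as enriched for H3K14ac in control cells on the short-arm side of the 5 acrocentric chromosomes, 13, 14, 15, 21 and 22. A region of the control list was taken when its midpoint in hg38 lay below 18.2 Mb on chromosome 13, 18.2 Mb on chromosome 14, 19.9 Mb on chromosome 15, 13 Mb on chromosome 21 or 15.1 Mb on chromosome 22. The rule used positions alone. It took 2491 regions out of 39876 in the control list. In the same spans lay 2 of the 28187 regions of the knockdown list. H3K14ac, acetylation of histone H3 at lysine 14, was mapped by chromatin immunoprecipitation and sequencing (ChIP-seq) in MKN45, an established human gastric cancer cell line. Control cells carried a short hairpin RNA labelled shNT, and the other cells carried a hairpin labelled shNIT2, against NIT2, an omega-amidase. Each condition had 1 H3K14ac library and 1 input library, the input libraries were not analysed here, and no drug treatment is named for any sample. Details of the hairpin lines, such as whether each is a clone or a pool, are not given in the sources used here. A list of regions does not measure NIT2 RNA, so the knockdown itself was not checked. With 1 library per condition no difference has a replicate check, and every interval below is an exact 95% interval that covers counting error only. The limit given for a count of 0 is 3 counts out of the total.

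Acetylation of H3 at lysine 14 is laid down by histone acetyltransferases and is best known from the promoters and enhancers of active genes. Acrocentric chromosomes have a very short arm that carries the nucleolar organizer, an array of repeats each encoding the 45S precursor of 18S, 5.8S and 28S ribosomal RNA, flanked by satellite DNA and segmental duplications and separated from the long arm by an alpha-satellite centromere. RNA polymerase I transcribes the active repeats, and the nucleolus forms around them. In hg38 most of these short arms is gap, chromosome 21 has the most gene-bearing short-arm sequence, and the centromeres are filled with modelled alpha-satellite arrays, some of which are duplicated between acrocentric chromosomes.

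The sequences that carry the gene-level results are those of the short arm of chromosome 21, and they are given first because they show the 1 promoter window under a region, and windows of the same arm that have close copies at other genes. They come from RefSeq with GRCh38.p14 coordinates, read 5′ to 3′ on the strand of the gene. In the first, a promoter window (250 bases before to 50 after a gene start) of LOC102724560, the cystathionine beta-synthase copy also called CBSL, capitals mark the 176 of 300 bases inside a control region (chr21:6467148-6467447, minus strand).
LOC102724560 window under the region: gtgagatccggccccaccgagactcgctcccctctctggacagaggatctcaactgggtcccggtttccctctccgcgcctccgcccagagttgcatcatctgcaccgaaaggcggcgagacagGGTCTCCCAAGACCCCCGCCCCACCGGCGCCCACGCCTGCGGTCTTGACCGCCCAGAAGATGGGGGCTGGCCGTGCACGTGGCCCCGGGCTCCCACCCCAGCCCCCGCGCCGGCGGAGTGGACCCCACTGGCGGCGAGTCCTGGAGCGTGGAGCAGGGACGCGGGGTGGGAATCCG
This window held 29 CpG dinucleotides and 71.7% G and C, where the medians over 35116 promoter windows of the table were 14 and 58.7%. It held the GC-box letters GGGCGG, searched on both strands, at 3 places, and 44.95% of all windows of that length held them at least once. No other gene's window shared 24 bases in a row with it. Only promoter windows were compared, so copies of this sequence outside them, as within CBS, were not looked for. Another window of the same gene (chr21:6467464-6467763, minus strand) lay outside the region and is shown beside the window of CBS on the long arm (chr21:43075786-43076085, minus strand), since the pair differs by 1 base, in capitals.
LOC102724560 window: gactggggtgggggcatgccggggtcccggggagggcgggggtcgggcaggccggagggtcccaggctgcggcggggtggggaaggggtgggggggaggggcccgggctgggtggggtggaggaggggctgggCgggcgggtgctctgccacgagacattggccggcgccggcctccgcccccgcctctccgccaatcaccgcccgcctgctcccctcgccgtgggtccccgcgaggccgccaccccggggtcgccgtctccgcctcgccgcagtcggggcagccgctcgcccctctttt
CBS window: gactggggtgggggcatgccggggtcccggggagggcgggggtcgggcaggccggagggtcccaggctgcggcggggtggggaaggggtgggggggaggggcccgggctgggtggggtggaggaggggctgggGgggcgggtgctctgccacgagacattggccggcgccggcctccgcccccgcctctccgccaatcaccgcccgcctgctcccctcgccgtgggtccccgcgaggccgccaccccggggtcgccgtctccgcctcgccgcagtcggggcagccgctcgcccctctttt
The substitution is C134G, with the LOC102724560 base first, the position counted from 1 at the 5′ end of the window and the CBS base last. Other copies lie within the short arm. The long non-coding RNA genes LOC124904989, LOC124904990, LOC124904991 and LOC124904992 have 4 identical windows, printed once with nothing in capitals (for LOC124904990, chr21:5710123-5710422, minus strand).
4 identical windows: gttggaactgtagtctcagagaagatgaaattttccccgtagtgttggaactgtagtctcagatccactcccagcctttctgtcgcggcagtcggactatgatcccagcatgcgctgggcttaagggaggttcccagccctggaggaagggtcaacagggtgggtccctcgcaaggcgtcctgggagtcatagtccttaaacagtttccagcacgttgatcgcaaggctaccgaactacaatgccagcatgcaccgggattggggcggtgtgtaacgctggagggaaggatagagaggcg
Of 49 promoter windows in the spans, belonging to 40 genes, 8 were identical to the window of another gene and 12 were within 15 edits of one. A control region touched 1 of the 49 windows, the LOC102724560 window shown first, and a knockdown region touched 0 of them. Over all 35116 windows the shares were 0.624% and 11.9%. The ribosomal repeats carry a microRNA gene, MIR6724, in 4 copies in the gene table, all 4 within 1 kb of a control region. The hairpins of MIR6724-2 (chr21:8249505-8249596, plus strand) and MIR6724-4 (chr21:8432530-8432621, plus strand) are identical, and 1 is shown with the mature miR-6724-5p in capitals, followed by the mature sequence with its seed (bases 2 to 8) in capitals.
MIR6724-2 and MIR6724-4 hairpin: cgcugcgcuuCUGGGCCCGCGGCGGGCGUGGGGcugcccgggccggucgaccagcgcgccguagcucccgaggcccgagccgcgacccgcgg
miR-6724-5p: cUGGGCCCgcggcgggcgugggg

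The 2491 control regions made up 6.25% of the control list (6.01 to 6.49) and covered 1.10 Mb, 5.61% of the length the list covered. On the 5 chromosomes together they were 52.1% of 4778 control regions. The spans of chromosomes 13, 14, 15, 21 and 22 held 456, 473, 486, 592 and 484 of them. The 4 chromosomes other than 21 therefore held close to equal numbers, with overlapping Poisson intervals (415 to 500 for chromosome 13 and 444 to 531 for chromosome 15), and chromosome 21 held more (545 to 642). As a share of all control regions of the chromosome, the spans took 47.1% on chromosome 13, 41.1% on 14, 41.6% on 15, 76.4% on 21 and 67.7% on 22. No member overlapped another member.

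In the knockdown list the spans of chromosomes 13, 14, 15 and 22 held 0 of 671, 1072, 1010 and 483 regions. A count of 0 there allows a share of up to 0.447%, 0.2799%, 0.297% and 0.621% of the chromosome's knockdown regions. Chromosome 21 held 2 of 310. Over the whole list the share was 0.0071% (0.00086 to 0.0256). Past the limits on these chromosomes the control list had 5.33 to 8.33 regions per Mb, and the knockdown list had 6.98 to 13.6. Its first region past the limit stood 1397 kb beyond it on chromosome 13, 2132 kb on 14, 2886 kb on 15, 1865 kb on 21 and 1986 kb on 22. These first regions lay in genes on chromosome 14 (CCNB1IP1, a cell-cycle E3 ligase), 15 (NIPA1, a magnesium transporter), 21 (ASMER1, a long non-coding RNA) and 22 (IL17RA, the receptor of interleukin 17A). The 2 libraries differed in depth: the lowest background in the control list was 0.278 fragments per position and in the knockdown list 2.48, and the median pileup at the summit was 6 fragments against 22. The part of depth, and of how each library's reads were handled, in the count of 2491 against 2 was not tested.

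**Figure D1:**
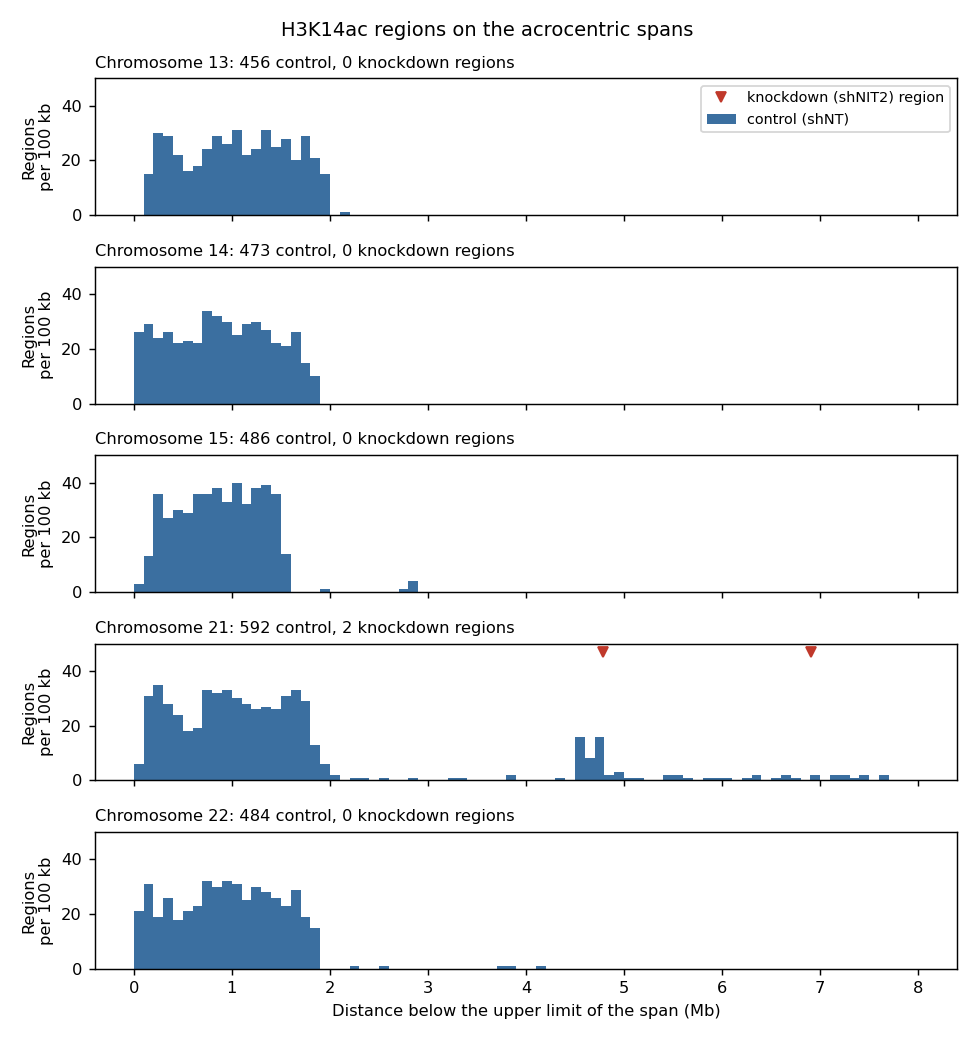
Numbers of control regions in bins of 100 kb (bars, vertical axis) against distance below the upper limit of each span in Mb (horizontal axis), 1 panel per chromosome, with triangles at the 2 knockdown regions (their height has no meaning). Each span has a dense block next to its limit, and chromosome 21 has a further group at its ribosomal repeats and scattered regions beyond.

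The label of short arm was not checked for most of the members. In all 2406 of them (96.6%) lay in 5 blocks next to the upper limits in which the gene table lists no gene of any kind. The blocks were set by the absence of genes alone. Which of their regions lie in the modelled centromeric arrays of hg38 was not checked. The other members were 40 at the ribosomal repeats of chromosome 21 and 45 elsewhere, 41 of these on gene-bearing 21p and 4 on chromosome 22. All members on chromosomes 13, 14 and 15 were block regions. The blocks held 0 knockdown regions, and that count allows a share of up to 0.0106% of the knockdown list. The extent from first to last region of a block was 1.95 Mb on chromosome 13, 1.83 Mb on 14, 2.82 Mb on 15, 2.15 Mb on 21 and 2.16 Mb on 22. Whether the sequence under the block regions is alpha satellite was not tested.

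Within the blocks control regions were 20.7 to 43.9 times as dense as past the limits on the same chromosome. Chromosome 14 had 259 regions per Mb (236 to 284), 21 had 238 (218 to 260), 13 had 234 (213 to 256), 22 had 223 (203 to 244) and 15 had 172 (157 to 188). The intervals of chromosomes 14, 21, 13 and 22 overlapped, and that of chromosome 15 lay below all of them. The lower value of chromosome 15 went with empty stretches: 10 of its 28 bins of 100 kb held no region, against 0 of 19 on chromosome 13, 0 of 18 on 14, 1 of 21 on 21 and 2 of 21 on 22. Regions covered 8.53% of the block on chromosome 15 and 9.62% to 11.2% on the others. The median gap between neighbouring summits over all spans was 2688 bp, and it was 2389 bp on chromosome 15 and 2574 to 2830 bp in the other blocks.

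The authors' fold, which is the pileup at the summit over the local background with 1 added to each, was close to equal in 4 of the blocks. Its median was 5.47 on chromosome 13, 5.48 on 14, 5.48 on 21 and 5.48 on 22, and 4.70 on chromosome 15. The fragments at the summit had medians of 8 in those 4 blocks and 6 on chromosome 15. The share with a −log10 q of at least 5 was 48.9% (44.2 to 53.6) on chromosome 13, 46.7% (42.2 to 51.3) on 14, 47.8% (43.3 to 52.2) on 21, 47.3% (42.8 to 51.9) on 22 and 29.4% (25.4 to 33.7) on 15. The interval of chromosome 15 lay below the 4 others, which overlapped one another. The blocks of chromosomes 13, 14, 21 and 22 shared region positions, as described below. Their near-equal values here, and their densities above, are therefore not 4 independent observations. Block regions were weak in absolute terms, since their quartiles were 5 and 11 fragments at the summit.

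**Figure D2:**
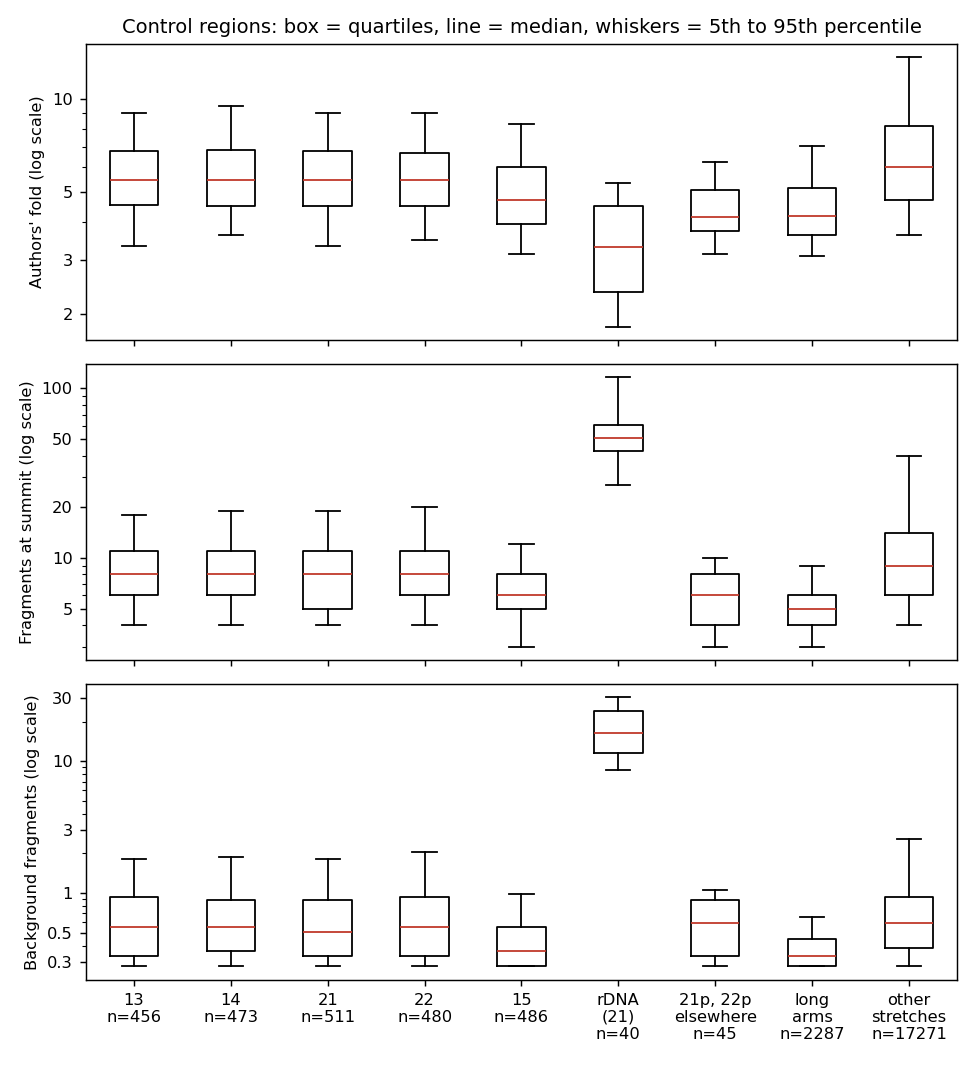
Authors' fold, fragments at the summit and background fragments (vertical axes, log scale) of control regions in each gene-free block (by chromosome number), at the ribosomal repeats (rDNA), elsewhere on the short arms of chromosomes 21 and 22, past the limits on the same 5 chromosomes (long arms) and in the gene-free stretches of 19 other chromosomes. The blocks of chromosomes 13, 14, 21 and 22 share a median of 8 fragments, chromosome 15 has 6, and the ribosomal repeats have 51 over a background of 16.5.

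The regions of 4 blocks stood at the same places relative to one another. Moving all chromosome 14 regions by 1 fixed distance against those of chromosome 13 put 189 pairs of summits within 100 bp, where the next best distance gave 30. The other pairs among chromosomes 13, 14, 21 and 22 gave 181 to 198 pairs at the best distance and 26 to 29 at the next. At the best distance 62.9% to 65.6% of chromosome 13 regions overlapped a region of the partner (299 of 456 with chromosome 21, 289 of 455 with 14 and 286 of 455 with 22). At the next distance the overlap was 107, 124 and 89 regions. The distances closed on themselves: the distance from chromosome 14 to 21 measured directly and by way of chromosome 13 differed by 8 bp, that from 14 to 22 by 7 bp and that from 21 to 22 by 0 bp. In the frame so shared, the last regions of the 4 blocks ended within 2631 bp of one another.

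Chromosome 15 did not share the frame. Its best distances gave 29 to 32 summit pairs and its next best 27 to 30, so the best did not stand out. The overlap at its best distances was 107 to 124 regions of the first chromosome of each pair, and at the next distance 116 to 134. These counts show the overlap that blocks of this density reach at a distance that is not singled out.

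The shared frame of chromosomes 13, 14, 21 and 22 spanned 1.82 Mb and held 1910 regions at 800 positions. Of these positions 171 had a region on all 4 chromosomes, 175 on 3, 208 on 2 and 246 on 1. In all 1664 regions (87.1%) stood at a position with a region on at least 1 further chromosome. Part of this share comes with density, since each region had 3 partner chromosomes to match. At the next best distances 124, 107 and 89 chromosome 13 regions already overlapped a region of chromosome 14, 21 or 22. The share that density alone gives with 3 partners was not computed. Regions were stronger where more chromosomes carried one: the median fragments at the summit were 6, 7, 8 and 11 at positions with 1, 2, 3 and 4 chromosomes, and the median fold was 4.66, 4.98, 5.42 and 6.31. The share with a −log10 q of at least 5 was 20.3% at positions of 1 chromosome and 67.3% at positions of all 4. Fragments at matched regions had a Spearman correlation of 0.70 to 0.81 between 2 of the 4 chromosomes and backgrounds one of 0.75 to 0.82, over all matched regions of each pair, which share 1 library. Matches with chromosome 15 gave −0.18 to 0.13 for fragments.

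The matched position with the most fragments shows the likeness region by region. The regions chr13:17368929-17369588, chr14:17491227-17491872, chr21:12233490-12234147 and chr22:14371999-14372658 had 32, 35, 33 and 34 fragments over backgrounds of 2.26, 2.26, 2.65 and 2.81. Their folds were 10.1, 11.0, 9.33 and 9.19, so the 4 values lay in a narrow range. The chromosome 14 and chromosome 22 members of this set held the most fragments of any region in their spans. At the next position the 4 chromosomes had 32, 32, 31 and 26 fragments, with folds of 6.64, 7.47, 7.94 and 6.43. At the third they had 37, 31, 32 and 21 fragments and folds of 9.18, 5.98, 7.38 and 5.31. The 37 fragments of chr13:17241416-17242067 were the most on chromosome 13. Reads that match several copies equally well have no single origin, and the authors' treatment of them was not given in the sources used here, so signal from 4 chromosomes and signal from fewer that was spread over 4 reference copies cannot be told apart.

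**Figure D3:**
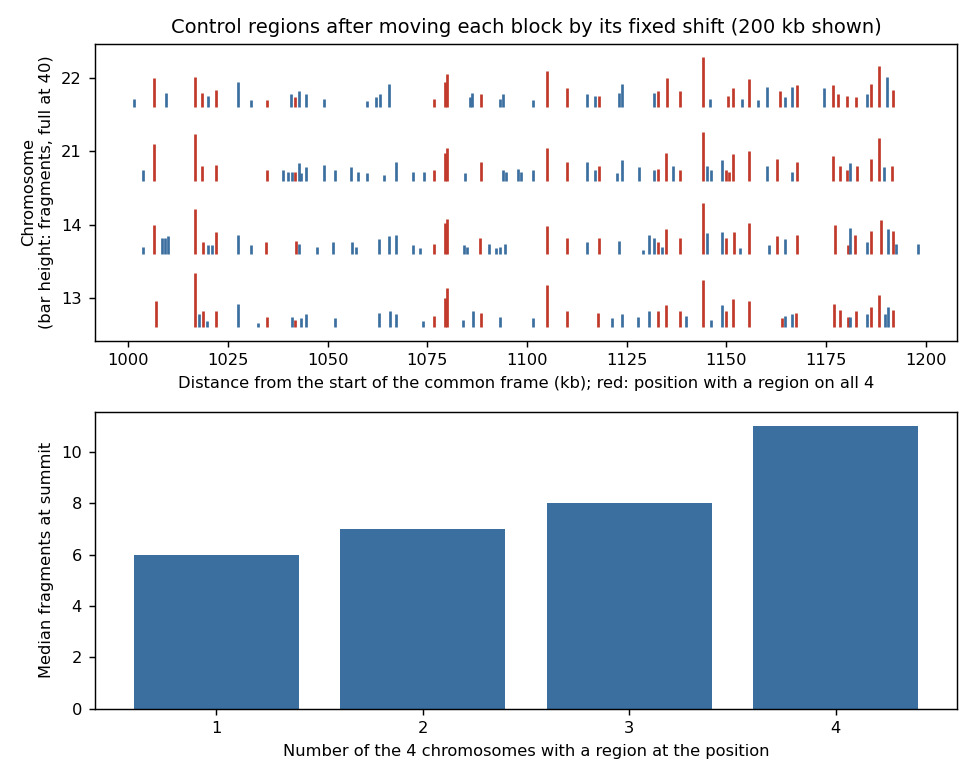
Top, control regions of chromosomes 13, 14, 21 and 22 in a stretch of the shared frame after each block was moved by its fixed distance, against distance from the start of the frame in kb (bar height is fragments at the summit, full height 40, and red marks positions with a region on all 4). Bottom, median fragments at the summit by the number of chromosomes with a region at the position, 6, 7, 8 and 11 from 1 to 4 chromosomes.

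The strongest single regions of the spans were on chromosome 15 and outside this shared pattern. A cluster of 6 regions, picked out after its values were seen, covered 11.4 kb and began at chr15:19775363-19781162, which was 5800 bp wide with 130 fragments over a background of 7.05 and a fold of 16.3. It was the widest member and had the highest −log10 q, 109. Its neighbour chr15:19782009-19782724 had 84 fragments and a fold of 24.4, the highest of all members and the only member among the 100 highest folds of the control list (rank 58). The next 3 had folds of 10.4, 6.60 and 17.6, and the last, chr15:19795031-19795430, had 4 fragments and a fold of 3.61. The nearest gene was RNU6-978P, a U6 small nuclear RNA pseudogene, 88184 to 102452 bp away. The knockdown list had 0 regions in the cluster's block.

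The highest folds of the other spans were 12.99 at chr13:16654912-16655881, 13.5 at chr14:17305643-17306327, 13.2 at chr21:11522492-11523142 and 13.7 at chr22:14418556-14418804. These 4 ranged from 12.99 to 13.7, but they stood at different positions of the shared frame and were not matched regions. Their fragments were 17, 23, 39 and 21. The widest regions there were 1875 bp on chromosome 13, 2877 bp on 14 and 1187 bp on 22, and the 1 of 1766 bp on chromosome 21 lay in the ribosomal repeats. The regions next to the limits, inside and outside, had folds of 3.13 to 7.04. On chromosome 13 the last region inside and the first outside both had 3 fragments and a fold of 3.13. On chromosome 14 they had 8 and 4 fragments with folds of 7.04 and 3.91, on 15 they had 4 and 4, on 21 they had 7 and 4 with folds of 6.01 and 3.91, and on 22 they had 3 and 4.

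The ribosomal repeats of chromosome 21 held 40 control regions in 280 kb, and they were of another kind than the block regions. Their median was 51 fragments at the summit over a background of 16.5, which is 59.4 times the lowest background of the list, and the median fold was 3.32. The block regions had a median of 7 fragments over 0.496. Among the 1000 control regions with the most fragments 33 were at the repeats, and by fold their median rank was 35164 of 39876. High pileup and low fold thus occurred together, with a high background at the same places.

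Control regions stood at the same distances from the start of the 45S gene in the 3 copies that the gene table lists on chromosome 21. These are RNA45SN2, RNA45SN3 and RNA45SN1. Of 36 regions from −5000 bp to 45000 bp of a gene start, 15 recurred in all 3 copies, 15 in 2 and 6 stood in 1. The other 4 of the 40 regions lay outside these ranges. Of them, 3 were within 1 kb of LOC110467529, a pseudogene also called RNA28SP between RNA45SN2 and RNA45SN3. They had up to 63 fragments and folds up to 7.11, the highest fold at the repeats. At the gene start itself RNA45SN2 had a region from −951 to 806 bp with 44 fragments, RNA45SN3 had one from −961 to 804 bp with 43 fragments, and RNA45SN1 had one from −256 to 118 bp with 45 fragments. These are the positions of the 45S promoter, where the transcription factor UBTF and RNA polymerase I assemble. In the intergenic spacer, 37959 and 37977 bp after the start and beside the cell-division-cycle pseudogenes CDC27P9 and CDC27P10, were the 2 members with the most fragments of all. They were chr21:8243947-8244654 with 142 fragments and a fold of 5.30, and chr21:8427012-8427696 with 140 fragments and a fold of 5.34. RNA45SN1 had 63 fragments at the matched place, 38304 bp after its start, fewer than the other two.

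The matched regions 34044, 34020 and 34384 bp after the start of RNA45SN2, RNA45SN3 and RNA45SN1 had 106, 114 and 104 fragments, so all 3 copies were alike there. The 18S part of RNA45SN2 and of RNA45SN1 had a region 5027 and 5030 bp after the start with 36 and 39 fragments and folds of 1.82 and 1.77, among the lowest of the list. The 28S part held regions 9310 bp after the start in RNA45SN2 (59 fragments, fold 4.79) and 9296 bp after it in RNA45SN3 (50 fragments, fold 4.72). The 5.8S genes had none within 1 kb in any copy. Across the list of ribosomal RNA genes, 12 of 20 were found on the chromosomes of the gene table, 8 of them had a control region within 1 kb and 2 a knockdown region, beside 14.9% and 23.3% of the 59003 genes of all types in the table. The 8 are not independent, since the 45S genes contain the 18S and 28S genes. How alike the 3 copies are in sequence, and which copy a read came from, was not tested. The gene table places all 12 found genes on chromosome 21 and lists none on the other acrocentric chromosomes. Signal given here to chromosome 21 therefore cannot be told apart from signal of ribosomal repeats on other chromosomes.

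**Figure D4:**
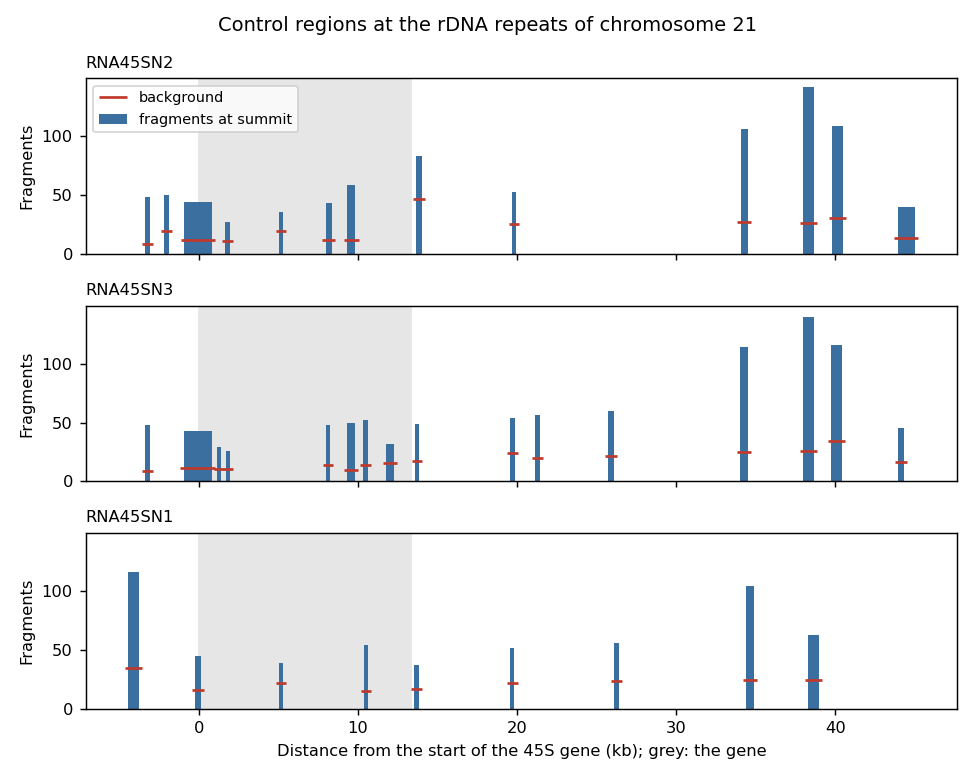
Fragments at the summit (blue bars, drawn at the width of the region) and background fragments (red lines) of control regions. The horizontal axis is distance from the start of the 45S gene in kb, with the gene in grey. Panels are the 3 copies that the gene table lists on chromosome 21. Bars recur at the gene start and at places in the spacer after the gene, where RNA45SN2 and RNA45SN3 reach 142 and 140 fragments.

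One of the 2 knockdown regions of the spans was also in the repeats and gave the only overlap with a member. The control region chr21:8219634-8219980 had 83 fragments over a background of 46.7, a fold of 1.76 and rank 39874 by fold. The knockdown region chr21:8219670-8220064 had 326 fragments over a background of 152, a fold of 2.13 and rank 28094 of 28187. Both lay just past the end of RNA45SN2, at 332 and 368 bp from it, and both were near the bottom of their list by fold. Its matches in the control list at RNA45SN3 and RNA45SN1 had 49 and 37 fragments. Overlap with the knockdown list was thus 1 of 2491 members (0.040%, 0.0010 to 0.224), beside 9.06% of all control regions and 462 of 2287 (20.2%, 18.6 to 21.9) past the limits on the same 5 chromosomes. With only 2 knockdown regions in the spans, the overlap could involve only a few members wherever they stood. It therefore restates the count of 2 and is no separate result. With a reciprocal overlap of 50% the member still counted, as did 2.07% of all control regions, and with the ribosomal repeats left out the overlap was 0.

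The other knockdown region, chr21:6097790-6098056, had 17 fragments, a background at the lowest level of its list (2.48) and a fold of 5.17. It lay on 21p, 9548 bp from the long non-coding RNA gene CH507-42P11.6. A control region stood nearby at chr21:6096513-6096760, with 3 fragments and a fold of 3.13, without touching it.

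The genes within reach of a member were all on chromosome 21. Of the 165 genes that the table lists in the spans, 119 are on chromosome 21, and 33 of these had a control region within 1 kb while 2 had a knockdown region (RNA45SN2 and RNA28SN2). Many of the 33 are nested or neighbouring genes of the ribosomal repeats that the same regions touch. The 33 are thus not independent, and their share is a description only. Over genes of all types the table's shares were the 14.9% and 23.3% given for the ribosomal genes. Of 19 protein-coding genes, 2 had a control region and 0 a knockdown region, beside 28.7% and 47.3% of all 19879 protein-coding genes of the table. The 2 were LOC102724560 (CBSL), whose long-arm counterpart encodes the enzyme that turns homocysteine and serine into cystathionine, and LOC102723475 (KCNE1B), whose counterpart KCNE1 encodes a beta subunit of a cardiac potassium channel. Outside the ribosomal repeats the long non-coding RNA gene LOC102724701, on 21p, had 6 regions with up to 13 fragments. It is a long gene (chr21:6228966-6670731) that contains LOC102724560, and 1 of the 6 is the LOC102724560 region chr21:6467008-6467323.

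Several of these short-arm regions had a partner at a similar place in a reference copy of the gene. Reads that match both copies equally well have no single origin, and which copy a read came from was not tested. A region at each copy therefore cannot be told apart from signal of 1 copy that was spread over both. In LOC102724560 the region chr21:6467008-6467323 stood 1298 to 1613 bp after the gene's 5′ end, with 6 fragments and a fold of 5.26. In CBS the region chr21:43075330-43075566 stood 1307 to 1543 bp after it, with 5 fragments and a fold of 4.70. These are the loci whose windows were printed above. In LOC102723475 a region of 3 fragments and fold 3.13 began 2366 bp to the lower-coordinate side of the matching promoter window. In KCNE1 one with the same values began 2322 bp from it on the same side. These values also belong to other weak regions of the list, such as those next to the limit on chromosome 13, so their equality is no sign of likeness. Between LINC03104 and LINC03105, a pair of long non-coding RNA genes within 21p, regions of 11 and 13 fragments stood 11410 and 11379 bp from the gene's lower coordinate, with folds of 9.10 and 10.5, the highest folds among the 45 members outside blocks and repeats. LOC124904989 and LOC124904992, which share 1 promoter window letter for letter, had regions of 8 fragments each that began 3326 bp after the gene's 5′ end in both, with folds of 5.42 and 4.65. LOC124904990 and LOC124904991, with the same window, had none within 1 kb.

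Of the coding genes of 21p chosen as a list, 11 of 15 were in the table and 3 had a control region: BAGE2, a cancer-testis family member listed as a pseudogene (8 fragments, fold 4.17), CBSL and KCNE1B. TPTE, a testis phosphatase, and the copies of U2AF1, CRYAA, SMIM11, SIK1, FAM243, SMIM34 and GATD3 had none. Of their long-arm counterparts 2 of 7 had a region, CBS and KCNE1, with the limit given above on which copy a read came from. Of 16 genes listed from families near the limits on the long arms (a chosen list, not the 16 closest genes) 2 had one, TPTE2 with a fold of 5.80 and LIPI, a lipase, with a fold of 3.76, while POTE and olfactory receptor genes had none. The knockdown list touched 0 genes of these 3 lists. Genes of RNA polymerase I and the nucleolus, which act on the repeats from other chromosomes, had a region in 3 of 11 in the control list (TAF1B, TAF1D and RRN3, with folds of 5.19, 4.83 and 3.91) and in 7 of 11 in the knockdown list. The latter 7 were UBTF, TAF1A, TAF1C, TAF1D, NCL, NPM1 and FBL, with folds from 3.45 to 9.30. With 28.7% and 47.3% of all coding genes having a region, these counts are a description of the list.

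The 4 members on chromosome 22 outside its block had 4, 6, 6 and 7 fragments and folds of 3.13 to 4.51. Together with the 41 on 21p they had a median of 6 fragments and a fold of 4.13, near the 5 fragments and 4.16 of the regions past the limits on the same chromosomes. In the blocks the median fold was 5.35 and the median width 369 bp, against 311 bp past the limits. The shares with a −log10 q of at least 5 were 44.0% (42.0 to 46.0) in the blocks, 13.3% (5.05 to 26.8) among the 45 and 14.3% (12.9 to 15.8) past the limits. Intervals of the last pair overlapped, and that of the blocks lay above both.

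The blocks were like the longest gene-free stretches of the 19 other chromosomes in holding few or 0 knockdown regions, but were lower in strength. Those stretches held 17271 control regions, or 132 per Mb of their full length. The block densities above used the extent from first to last region instead, so the 2 measures are unlike. Neighbouring summits had a median gap of 1675 bp in the stretches and 2624 bp in the blocks, so by gap the stretches were the denser. The stretches held 3 knockdown regions, and 2 of their control regions (0.012%) overlapped one. Their median fold was 6.03 and their median fragments 9, with 57.6% (56.9 to 58.4) at a −log10 q of at least 5, above the interval of the blocks. They held 84 of the 100 highest folds and 921 of the 1000 highest, where all spans held 1 and 5. The members were most frequent among control regions of middle strength. Their share was 3.25% (2.82 to 3.72) of regions with a −log10 q below 2, 6.08% (5.75 to 6.42) from 2 to 5, 9.73% (9.11 to 10.4) from 5 to 10, 6.63% (5.84 to 7.49) from 10 to 20, 1.57% (0.995 to 2.34) from 20 to 50 and 0.862% (0.235 to 2.19) above 50. The 4 members above 50 were 2 of the chromosome 15 cluster and 2 of the ribosomal repeats.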

How the data were processed

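H3K14ac ChIP-seq of MKN45 cells gave 4 samples, of which the 2 H3K14ac libraries have a list of regions. Per the submitters' processing notes, the tools were MACS2 2.1.1, Bowtie2 2.2.6, cutadapt 1.9.1, Trimmomatic 0.35, ChIPseeker and FastQC, with build hg38. The use of the inputs as control and the treatment of duplicates and of reads with several matches are not given in the sources used here. A deposited list comes from 1 library and holds, per region, a score, a fold (ratio of pileup to background, 1 added to each), a −log10 p-value, a −log10 q-value (1.30 or more in both lists) and the summit position, all as the authors deposited them. Values are the authors' own and were used within a list, except that pileup and background of both lists are set side by side for depth and at the 2 knockdown regions.

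Pileup and background were solved from fold and −log10 p (Poisson upper tail, tolerance 0.1%) for 99.95% of control and 99.96% of knockdown regions and for all 2491 members. The step was tested on 3000 simulated regions. Overlap was at least 1 bp, and genes (RefSeq, GRCh38.p14, 19879 protein-coding) were within 1 kb. Intervals are exact Clopper-Pearson or Poisson, and depth is given only through pileup and background. Medians and shares stand without tests. Python 3.11.15, numpy 2.4.6, scipy 1.17.1 and pandas 2.3.3 were used. Named genes were those in the spans within 1 kb of a region, in order of position, plus the lists. Named regions were the highest fold, the widest, the most fragments and those at the limits. Members and lists were chosen with earlier results of these data known; the fixed distances, blocks, repeats, cluster and copies were added after seeing the data. A planned search for satellite motifs needs a genome and was not run. Alternatives changed the q, fold, limits, overlap and merging.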

Additional observations from a re-analysis of the deposited data

How the results depend on the processing

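Of 122 values recomputed under alternatives 66 stayed within 1.5 times the count or within the exact interval of the share or median, and 56 moved. Counting by touch, merging regions less than 1 kb apart, raising the limits by 0.5 Mb or asking for 50% reciprocal overlap moved none. Lowering the limits by 0.5 Mb moved the control share to 4.815%.

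Stricter thresholds leave fewer regions by construction. For a −log10 q of at least 5, at least 10, a fold of at least 5 and the 10000 strongest regions of each list in turn, the control count was 1093, 265, 1413 and 712. The share was 7.789%, 4.797%, 7.548% and 7.12%, the covered length 0.5382, 0.1453, 0.6735 and 0.3612 Mb, the median fold 6.78, 9.022, 6.262 and 7.44, and the median gap 5518, 18022, 4334 and 7627 bp. In the same order chromosome 13 had 223, 53, 290 and 148 regions, 14 had 221, 63, 285 and 155, 15 had 143, 23, 225 and 78, 21 had 279, 74, 324 and 187, and 22 had 227, 52, 289 and 144. Chromosome 15 was the lowest under each of these 4 and was not the lowest in the full list. The knockdown count was 1 under the last 3, and the overlapped count was 0 under all 4.

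2 settings were chosen after seeing the data. Without the ribosomal repeats the knockdown count was 1 and the overlapped count 0. In the gene-free blocks alone the knockdown count was 0, its share 0% and the overlapped count 0. The share of regions at a position shared by at least 2 of chromosomes 13, 14, 21 and 22 was 80.85% for a −log10 q of at least 5, 72.43% for at least 10 and 74.24% for summits within 100 bp, also chosen after seeing the data.

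No paired analysis was possible because each condition has 1 H3K14ac library. No sample was left out for the same reason. Median pileups of 6 and 22 fragments limit what either list shows, and signal below a list's threshold is not seen.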
